A study of Mus musculus with 8 samples.

Results

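Messenger RNA of the cytochrome P450 families 1 to 3, the enzymes that carry out most of the oxidation of drugs, toxins and steroids in liver, was described gene by gene in WT and LXRDKO mice. Every gene whose symbol began with Cyp, a family number from 1 to 3, a subfamily letter and a gene number was taken, leaving out symbols that end in -ps, which mark pseudogenes. This gave 54 of the 25010 genes measured, of which 53 were protein coding and 1, Cyp3a61-ps1, was a pseudogene whose symbol ends in a further digit. The mean reached 10 normalized counts in 46 of the 54, and these 46 were tested among 15578 genes. The members fell into 15 subfamilies, the largest being Cyp2c with 14 genes, Cyp3a with 9, Cyp2d with 8 and Cyp2j with 6.

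Polyadenylated RNA of the left liver lobe was sequenced in 2 WT and 2 LXRDKO mice, with 1 library per mouse. The mice, all on the C57BL/6 background, were killed at an age of 8 wk after 4 to 6 h without food. WT mice had both liver X receptors (LXRs), the oxysterol-activated nuclear receptors that control lipid and cholesterol genes, whereas LXRDKO mice lacked LXRα (Nr1h3) and LXRβ (Nr1h2) in the whole body, so that effects outside the liver also enter. Whether WT mice were littermates is not given in the sources used here. Each mouse is called by its genotype and number, as WT 1 or LXRDKO 2, and the values are normalized counts, that is, reads on a gene divided by 1 size factor per library.

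Cytochrome P450 enzymes of these families sit in the endoplasmic reticulum, bind heme, and take electrons from the reductase Por and from cytochrome b5 to put an oxygen atom into their substrates. Hepatocytes express them at high levels, many of them in the hepatocytes around the central vein, and several are induced by xenobiotics through the receptors AHR (family 1), CAR (Nr1i3) and PXR (Nr1i2), the last pair acting mainly on Cyp2b, Cyp2c and Cyp3a genes. Others differ between male and female mice because growth hormone is secreted in a different pattern in each sex, or make and modify bile acids, fatty acid epoxides and steroid hormones.

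Between 55772659 and 72842744 reads were counted on genes in each liver. The deleted receptors were lower in LXRDKO. Nr1h3 had 5785 and 5322 normalized counts in WT against 1712 and 1826 in LXRDKO, and Nr1h2 had 2987 and 3110 against 925 and 1003 (limma adjusted P = 0.0147 for each). The sample labels do not give the sex of the mice, but Y-linked genes were expressed in every liver. Ddx3y lay between 4242 and 4916 normalized counts and Uty between 867 and 1148. Kdm5d lay between 1234 and 1440 and Eif2s3y between 2823 and 3201. Xist lay between 5.70 and 10.4, so each mouse was male by these genes. Of 5 hepatocyte markers none passed the test, and their summed level was 6414590 and 7442232 in WT and 6633978 and 6031403 in LXRDKO. Nothing states that same-numbered mice were related. The P values measure the spread between these few mice only, and the smallest value that an exact permutation test of 2 against 2 can give is 0.333.

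The 54 genes together took 2.22% and 1.88% of all normalized counts in WT, against 2.64% and 2.32% in LXRDKO. The summed level overlapped between genotypes, with WT 1 at 1409392, WT 2 at 1161324, LXRDKO 1 at 1596135 and LXRDKO 2 at 1401818 normalized counts (two-sided exact permutation P = 0.667). The 5 members with the most counts held 74% of the total. Cyp2e1, which oxidizes ethanol, acetone and acetaminophen, alone took 41% and 31% of the members' counts in WT and 37.2% and 38.9% in LXRDKO. Per kilobase of exons, the scale on which genes can be compared with each other, Cyp2e1 had a mean level of 240753 normalized counts per kb over the 4 livers. It was followed by Cyp3a11 at 54725, Cyp2f2 at 49568, Cyp2d26 at 28972 and Cyp2c29 at 26081 per kb. In the plot of levels per kb, Cyp2f2 lies above Cyp3a11 in WT 1 and below it in the other livers, so that this pair is not ordered beyond its spread. Cyp2d26 lies above Cyp2c29 in each liver, by less than either gene varied between the WT livers. At the other end, 8 members were not tested, and 7 of them (Cyp2b13, Cyp2c65, Cyp2j7, Cyp2j13, Cyp2t4, Cyp3a41b and Cyp3a61-ps1) had at most 3 reads in every liver, which is no more than the floor that counting error allows for a count of 0. The last of the 8, Cyp2d34, had between 3 and 12 reads.

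**Figure D1:**
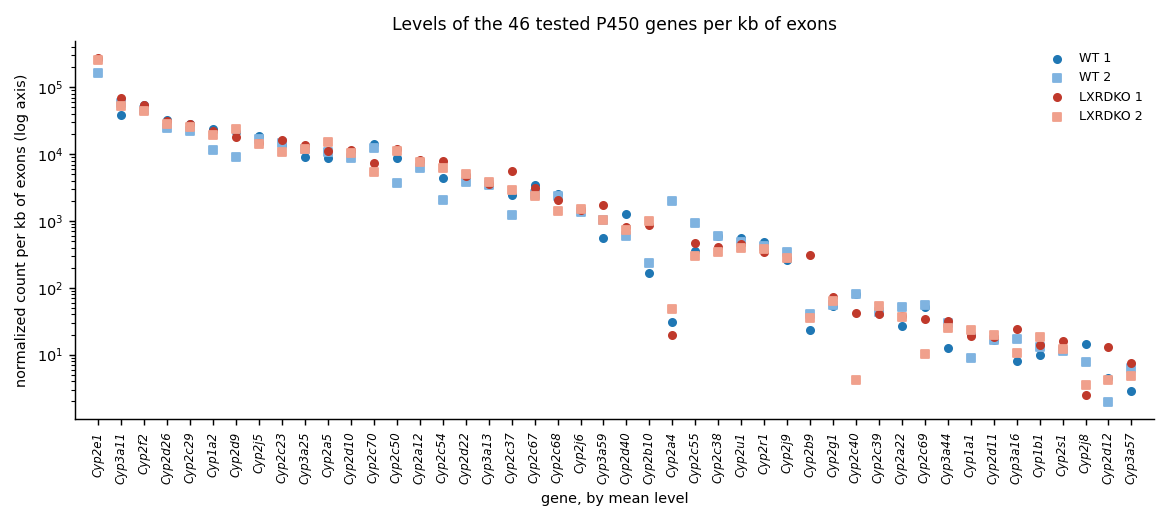
Normalized count per kb of exons (log axis) of the 46 tested P450 genes in each of the 4 livers, with genes ordered by their mean level. Cyp2e1, with a mean of 240753 per kb, stands above all others, and Cyp2a4, Cyp2b9 and Cyp2c40 each have 1 liver far from the other 3.

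Few of these genes passed a test of the difference between genotypes. With limma on log2(normalized count + 1) and Benjamini-Hochberg adjustment over all 15578 genes, 1 of the 46 tested members, Cyp2b10, was up-regulated, where 0.135% of all genes tested were called higher in LXRDKO. None was called lower by limma, where 0.186% of all genes were, although 7 members (15.2%) were lower at an unadjusted P under 0.05, against 7.50% of all genes. Another 4 (8.70%) were higher at that unadjusted threshold, against 5.77% of all genes. DESeq2 on the recovered reads called Cyp2b10 higher, at a background of 1.56% of genes, and called Cyp2c70 and Cyp2c38 lower, at a background of 2.03%. The quasi-likelihood test of edgeR called Cyp2b10 higher and no member lower, at backgrounds of 0.122% and 0.193%.

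The members stood close to the average gene in how often the genotypes separated. In 11 of 46 members (23.9%) the lower LXRDKO liver exceeded the higher WT liver, where 21.7% of all genes tested did so. In 9 members (19.6%) the reverse held, where 23.0% of all genes did. The median log2 fold change was 0.19 over the 46 members and 0.00 over all genes tested, with 30 members above 0 and 16 below. For 29 members the log2 fold change was under 0.5 in size, and for 22 the 95% confidence interval lay within a change of 1 on the log2 scale in either direction. The median standard error of a member was 0.28 on that scale, and for the other members the interval reached beyond a 2-fold change.

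**Figure D2:**
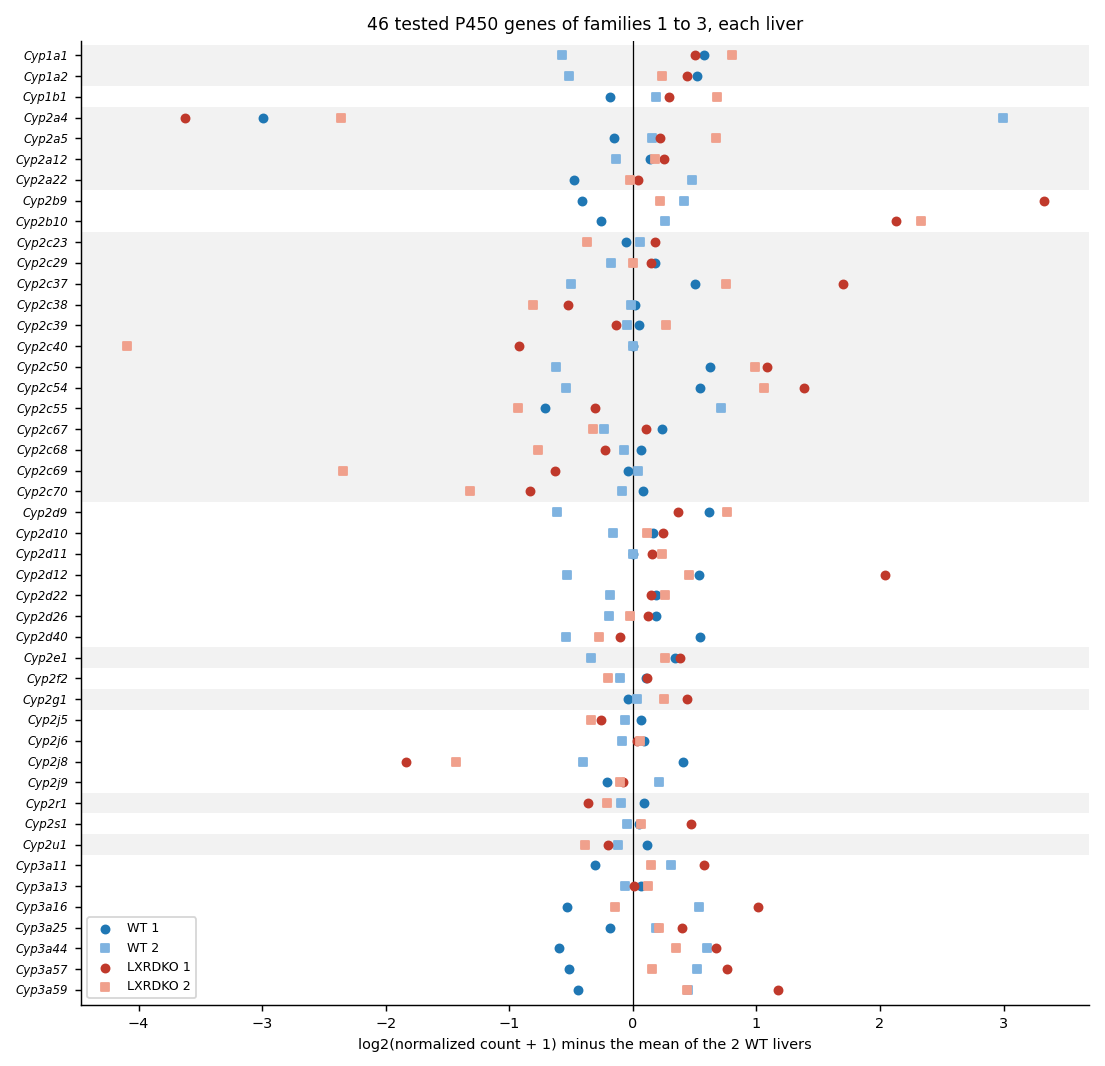
Each of the 46 tested P450 genes in each liver, as log2(normalized count + 1) minus the mean of the 2 WT livers, with subfamilies in alternating bands. Cyp2b10 is the member in which both LXRDKO livers lie more than 2 log2 units above WT, while the far points of Cyp2a4, Cyp2b9 and Cyp2c40 come from single livers.

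The stretches before the transcription starts of Cyp2b10, the 1 gene called by all 3 tools, and of Cyp2c37, Cyp2c50 and Cyp2c70, neighbours on chromosome 19 whose LXRDKO livers lay above (Cyp2c37 and Cyp2c50, not called) or below (Cyp2c70, called by DESeq2 alone) both WT livers, are printed so that the neighbours can be compared. They are the 150 bases before the start in RefSeq on GRCm38, written 5′ to 3′ along each gene, and 45 of the 54 members have such an entry. They lie at chr7:25897508-25897657 on the plus strand for Cyp2b10, at chr19:39992274-39992423 and chr19:40089529-40089678 on the plus strand for Cyp2c37 and Cyp2c50, and at chr19:40187287-40187436 on the minus strand for Cyp2c70. RefSeq starts can differ from the GENCODE gene bounds given elsewhere in the text. By those bounds, the stretches of Cyp2b10 and Cyp2c70 reach into the gene, which begins at 25897620 for Cyp2b10 and at 40187333 for Cyp2c70. Capitals mark matches, on either strand, to the nuclear receptor half-site AGGTCA, to the TATA box motif written as TATAAA, or to the promoter motif CCAAT, and no matches overlapped.
Cyp2b10: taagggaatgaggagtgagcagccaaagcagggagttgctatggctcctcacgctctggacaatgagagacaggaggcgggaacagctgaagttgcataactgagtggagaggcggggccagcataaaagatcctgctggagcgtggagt
Cyp2c37: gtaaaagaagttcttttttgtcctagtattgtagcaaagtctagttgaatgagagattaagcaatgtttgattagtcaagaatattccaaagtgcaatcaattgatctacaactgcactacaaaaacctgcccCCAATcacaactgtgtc
Cyp2c50: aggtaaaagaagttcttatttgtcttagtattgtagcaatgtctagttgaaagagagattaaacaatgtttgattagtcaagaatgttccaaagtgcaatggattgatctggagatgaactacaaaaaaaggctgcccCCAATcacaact
Cyp2c70: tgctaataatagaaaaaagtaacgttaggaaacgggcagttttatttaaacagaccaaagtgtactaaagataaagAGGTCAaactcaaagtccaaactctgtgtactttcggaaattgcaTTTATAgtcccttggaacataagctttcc
Aligned end to end, Cyp2c37 and Cyp2c50 were identical at 131 bases, or 87.3% of the 150, and each held CCAAT, starting 17 and 12 bases before the start. Cyp2c70 held a half-site starting 74 bases before the start and, on the opposite strand, TATAAA starting 29 bases before it, and was identical to Cyp2c37 at 60% of bases and to Cyp2c50 at 58.7%, while Cyp2b10 held none of the 3 motifs and was identical to the other 3 at 56% to 58.7%. Stretches of this length before 32851 RefSeq starts held AGGTCA in 8.58%, TATAAA in 7.57% and CCAAT in 24.5%. Of 48 such stretches that belong to P450 members, 6 held AGGTCA (12.5%), 21 held TATAAA (43.8%) and 12 held CCAAT (25%). These are matches of letters in a short window and describe neither a bound site nor a cause.

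Cyp2b10, the classical target of CAR and the gene most used to read its activity in mouse liver, was the 1 member that limma, DESeq2 and edgeR all called higher. This gene (ENSMUSG00000030483) lies on chromosome 7 from 25897620 to 25926624 of GRCm38, on the plus strand. It had 348 normalized counts in WT 1, 499 in WT 2, 1825 in LXRDKO 1 and 2099 in LXRDKO 2. The genotypes did not overlap, and the lower LXRDKO liver stood well above the higher WT liver. The mean was 423 ± 107 (SD, n = 2) in WT and 1962 ± 193 (SD, n = 2) in LXRDKO, 4.63-fold higher. The log2 fold change was 2.23 with a standard error of 0.20 (limma adjusted P = 0.0280), and by DESeq2 it was 2.21 (adjusted P = 2.7e-21). Cyp2b10 shared 8.70% of the 50-base stretches of its exons with other genes, mostly with Cyp2b13, which had at most 3 reads in any liver. With each liver left out in turn the log2 fold change was between 1.97 and 2.49, and the limma call was lost without LXRDKO 1 or without LXRDKO 2, when only 2 and 8 genes of the whole table were called. Cyp2b10 made up a small share of P450 counts, with 0.0247% and 0.043% of the members' counts in WT, against 0.114% and 0.15% in LXRDKO.

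The other Cyp2b genes are female-biased in mouse liver. Cyp2b9 had 43.3 and 77.2 normalized counts in WT, 588 in LXRDKO 1 and 67.5 in LXRDKO 2. A single liver was high, and the other LXRDKO liver lay between the WT livers. Its log2 fold change was 1.77 with a standard error of 0.98 (limma adjusted P = 0.518), and it was 0.22 without LXRDKO 1. Cyp2b13 had 3 reads in LXRDKO 1 and none in the other 3 livers, which is within the floor, and no fold was computed. The summed level of the Cyp2b genes, 391 and 576 normalized counts in WT against 2416 and 2166 in LXRDKO, was the only subfamily sum with several members to more than double.

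No Cyp2c gene passed limma, and DESeq2 called Cyp2c70 and Cyp2c38 lower and none higher. These enzymes make epoxides of arachidonic acid and oxidize drugs and steroids, and Cyp2c70 makes the muricholic acids that set mouse bile acids apart from human ones. Of the 13 tested, both LXRDKO livers were higher in 3 (23.1%, against 21.7% of all genes) and lower in 5 (38.5%, against 23.0% of all genes). The 3 with higher values, Cyp2c37, Cyp2c54 and Cyp2c50, are adjacent and span 122 kb. Cyp2c70, with both LXRDKO livers lower, begins 39.4 kb further on. The summed level of the subfamily, 195911 and 154246 normalized counts in WT against 205840 and 169203 in LXRDKO, overlapped between genotypes (two-sided exact permutation P = 0.667).

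**Figure D3:**
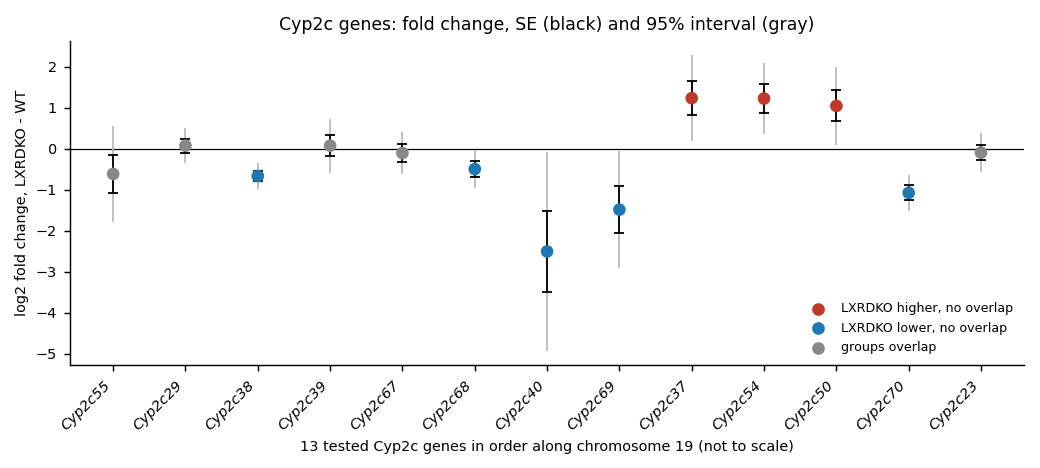
Log2 fold change (LXRDKO minus WT) of the 13 tested Cyp2c genes in their order along chromosome 19, with standard errors (black) and 95% confidence intervals (gray), colored by whether the 2 WT and 2 LXRDKO livers overlap. Cyp2c37, Cyp2c54 and Cyp2c50 lie side by side at 1.04 to 1.23, next to Cyp2c70 at −1.08, and Cyp2c40 and Cyp2c69 have the widest intervals.

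Cyp2c70 (ENSMUSG00000060613; chromosome 19, 40153353 to 40187333, minus strand) had the second-smallest limma P value among the members. It had 28000 and 24883 normalized counts in WT, against 14813 and 10583 in LXRDKO. No liver overlapped with the other genotype, and the WT mean of 26441 ± 2204 (SD, n = 2) was 2.08-fold the LXRDKO mean of 12698 ± 2991 (SD, n = 2). The log2 fold change was −1.08 with a standard error of 0.18, which did not pass limma (adjusted P = 0.108) but passed DESeq2 (adjusted P = 4.76e-06), and it stayed between −1.32 and −0.83 with each liver left out. None of the 50-base stretches of its exons occurs in another annotated gene. Cyp2c38, an arachidonic acid epoxygenase (chromosome 19, 39389556 to 39463075, minus strand), had 1737 and 1700 in WT against 1192 and 980 in LXRDKO. Its log2 fold change was −0.67 with a standard error of 0.13 (adjusted P = 0.131 by limma and 0.00575 by DESeq2).

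The adjacent genes Cyp2c37, Cyp2c54 and Cyp2c50, which respond to CAR and PXR activators, were higher in both LXRDKO livers without passing limma or DESeq2. Cyp2c37 (chromosome 19, 39992424 to 40012243) had 4483 and 2238 normalized counts in WT, against 10312 and 5329 in LXRDKO, a log2 fold change of 1.23 ± 0.42 (SE, n = 2 per genotype) with a limma adjusted P of 0.314. Cyp2c54 (40037940 to 40073827) had 7875 and 3708 in WT and 14094 and 11266 in LXRDKO, a log2 fold change of 1.22 ± 0.35 (SE) with an adjusted P of 0.247. Cyp2c50 (40089688 to 40113950) had 25250 and 10679 in WT and 34887 and 32637 in LXRDKO, a log2 fold change of 1.04 ± 0.38 (SE) with an adjusted P of 0.341. In all 3 genes WT 2 was the lowest liver. Without WT 2 the log2 fold changes were 0.73, 0.68 and 0.42 and without WT 1 they were 1.73, 1.76 and 1.66. That last fit has a WT arm of 1 liver, WT 2, which is assumed to vary like the LXRDKO pair, and it called 262 genes in place of 50, Cyp2c54 and Cyp2c50 among them. The 3 genes are not independent measurements, since 30.1%, 25.7% and 18.3% of their 50-base stretches occur in other genes, mostly in each other, and the values depend on how reads that match several genes were counted, which is not given in the sources used here.

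**Figure D4:**
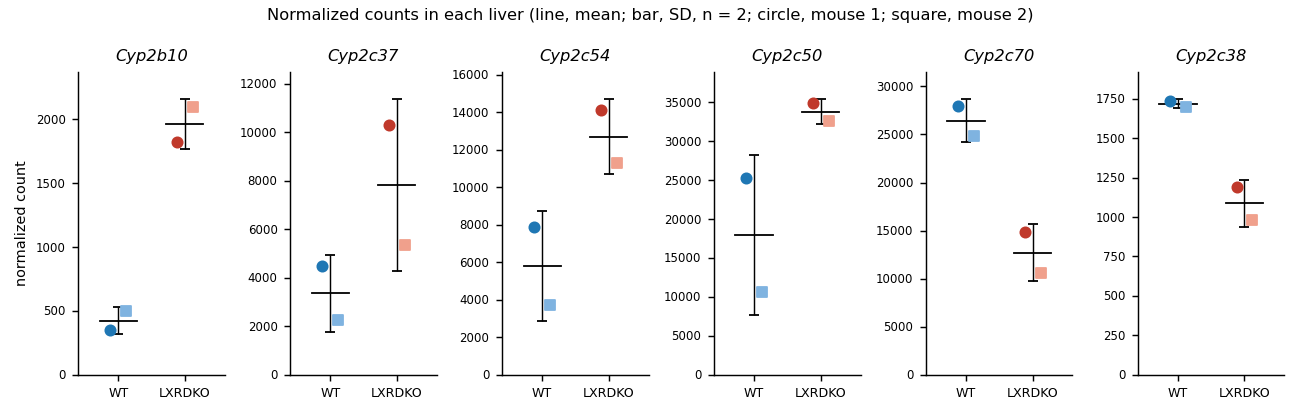
Normalized counts in each liver of Cyp2b10, of the adjacent Cyp2c37, Cyp2c54 and Cyp2c50, and of Cyp2c70 and Cyp2c38, with the mean and SD of 2 livers per genotype and axes that start at 0. In no panel do the genotypes overlap, and WT 2 (light square) is the lowest liver for Cyp2c37, Cyp2c54 and Cyp2c50.

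The remaining Cyp2c genes were called by neither limma, DESeq2 nor edgeR. Cyp2c29, the most abundant Cyp2c gene per kb, had 87647 and 68550 normalized counts in WT, against 85656 and 77482 in LXRDKO. Its log2 fold change of 0.07 had a 95% interval from −0.35 to 0.49. Cyp2c55, an inducible epoxygenase, had 701 and 1875 in WT and 925 and 602 in LXRDKO, so that WT 2 alone was high. The closely related Cyp2c67, Cyp2c68, Cyp2c40 and Cyp2c69 lie side by side and share 43.3% to 60.3% of their stretches with other genes. Both LXRDKO livers were lower for Cyp2c68, Cyp2c40 and Cyp2c69 and overlapped WT for Cyp2c67, at 5996 and 4330 in WT against 5484 and 4071 in LXRDKO. Cyp2c40, a female-biased gene, had 163 in each WT liver, 85.4 in LXRDKO 1 and 8.58 in LXRDKO 2, with a log2 fold change of −2.51 and a standard error of 0.98 (limma adjusted P = 0.361) that was −0.92 without LXRDKO 2. Cyp2c69, also female-biased, had 89.0 and 94.2 in WT and 58.8 and 17.2 in LXRDKO (log2 fold change −1.49, SE 0.58, limma adjusted P = 0.360), with LXRDKO 2 again the lowest. Cyp2c23 and Cyp2c39 overlapped between genotypes, with log2 fold changes of −0.10 and 0.07, and Cyp2c65 was not tested.

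All 7 tested Cyp3a genes had a log2 fold change above 0, from 0.07 to 0.81, and none was called by limma, DESeq2 or edgeR or had an unadjusted P under 0.05. Cyp3a11, the main PXR target and the most abundant drug-metabolizing P450 of its subfamily, had 194160 normalized counts in WT 1, 296900 in WT 2, 357594 in LXRDKO 1 and 266212 in LXRDKO 2. The genotypes overlapped, and the log2 fold change of 0.36 had a 95% interval from −0.37 to 1.09. Cyp3a25 was the only tested Cyp3a gene without overlap, with 19092 and 24627 in WT and 28605 and 25147 in LXRDKO (log2 fold change 0.31, SE 0.15, limma adjusted P = 0.473). WT 1 was the lowest liver and LXRDKO 1 the highest for Cyp3a11, Cyp3a25, Cyp3a44, Cyp3a16, Cyp3a57 and Cyp3a59. Of the female-biased Cyp3a genes, Cyp3a44 had 25.1 and 58.6 in WT and 61.7 and 49.3 in LXRDKO, and Cyp3a16 had 13.7 and 29.7 against 41.8 and 18.2. Cyp3a41b had at most 3 reads in any liver, and 93.5% of its stretches are found in Cyp3a41a, which is not analysed here. Cyp3a13, which shares no stretch with another gene, was the most even member of the subfamily, with a log2 fold change of 0.07 and a 95% interval from −0.18 to 0.31. The summed Cyp3a level overlapped between genotypes (225416 and 333761 against 400347 and 304939).

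Family 1, the targets of the dioxin receptor AHR, did not pass the test. Cyp1a2, which oxidizes caffeine and aromatic amines, had 47674 normalized counts in WT 1, 23355 in WT 2, 45213 in LXRDKO 1 and 39232 in LXRDKO 2. WT 2 was low and the other 3 livers were close to each other. The log2 fold change of 0.34 (SE 0.33) became −0.18 without WT 2 and 0.85 without WT 1. Cyp1a2 passed limma in the latter fit, which has WT 2 as its only WT liver and called 262 genes. Cyp1a1, which is low in liver without an inducer, had 55.9 and 24.6 in WT and 53.2 and 65.4 in LXRDKO, at 17.9 normalized counts per kb against 19309 per kb for Cyp1a2. Cyp1b1, expressed mainly outside hepatocytes, had 58.2 and 75.5 in WT and 81.6 and 107 in LXRDKO. These did not overlap, with a log2 fold change of 0.49 (SE 0.28, limma adjusted P = 0.541).

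In the Cyp2a subfamily Cyp2a5 was higher and Cyp2a4 was set by 1 mouse. Cyp2a5, which oxidizes coumarin and nicotine, had 17871 and 22053 normalized counts in WT, against 23107 and 31572 in LXRDKO. The groups were separate by a small margin, and the log2 fold change of 0.44 (SE 0.19) did not pass limma (adjusted P = 0.394) or DESeq2 (adjusted P = 0.260). Cyp2a4, a testosterone hydroxylase that is higher in female mice, had 53.6 in WT 1, 3470 in WT 2, 34.2 in LXRDKO 1 and 83.6 in LXRDKO 2, a 64.7-fold difference between the WT livers. Its log2 fold change was −3.00 with a standard error of 1.83, was 0.00 without WT 2 and −5.99 without WT 1. The call that limma made without WT 1 rests on WT 2 as the only WT liver, in a fit that called 262 genes. Cyp2a4 shares 38% of its stretches with other genes, mostly with Cyp2a5, whose own values differed by only 1.23-fold between the WT livers. Cyp2a12 was also higher in both LXRDKO livers and Cyp2a22 overlapped, with log2 fold changes of 0.22 and 0.01. The summed level of the 4 genes was 43879 and 46973 in WT and 51266 and 58330 in LXRDKO, without overlap (two-sided exact permutation P = 0.333, the smallest possible).

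The abundant Cyp2d, Cyp2e and Cyp2f genes did not separate the genotypes. Cyp2e1 had 578492 and 359514 normalized counts in WT, against 594408 and 545766 in LXRDKO. WT 2 was the low liver, the log2 fold change was 0.32 (SE 0.32), and it was −0.02 without WT 2. Cyp2f2, which bioactivates naphthalene and lies mainly in periportal hepatocytes, had 109218 and 94123 in WT and 109899 and 88259 in LXRDKO, with a log2 fold change of −0.04 and a 95% interval from −0.48 to 0.40 whose sign turned to 0.01 when the libraries were scaled to their totals. Cyp2d26, the most abundant Cyp2d gene per kb, had 57916 and 44518 in WT and 55292 and 49948 in LXRDKO (log2 fold change 0.05, SE 0.16). Cyp2d9, a male-biased testosterone hydroxylase, had 56622 in WT 1, 24036 in WT 2, 47568 in LXRDKO 1 and 62396 in LXRDKO 2. Again WT 2 stood apart, and the log2 fold change of 0.56 (SE 0.40) became −0.06 without it and 1.18 without WT 1, when Cyp2d9 passed limma with WT 2 as the only WT liver, in the fit that called 262 genes. Cyp2d22 had 19085 and 14796 in WT and 18556 and 20086 in LXRDKO. Cyp2d11 was the only tested Cyp2d gene without overlap, at 26.2 and 26.3 against 29.4 and 31.1, a margin of a few reads. Cyp2d10, Cyp2d12 and Cyp2d40 overlapped between genotypes, with log2 fold changes of 0.18, 1.24 and −0.19, and Cyp2d12 had at most 53 reads in a liver.

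Neither limma, DESeq2 nor edgeR called a Cyp2j gene or a member of the subfamilies with a single gene. Cyp2j5, an arachidonic acid epoxygenase of liver and kidney, had 43794 and 40193 normalized counts in WT, against 34979 and 33114 in LXRDKO. No liver overlapped, and the log2 fold change of −0.30 (SE 0.11) did not pass limma (adjusted P = 0.344). Cyp2j8 had 21.7 and 11.9 in WT and 3.80 and 5.36 in LXRDKO, which is 4 and 5 reads, with a log2 fold change of −1.63 (SE 0.53, limma adjusted P = 0.300). Cyp2j6 and Cyp2j9 overlapped, at log2 fold changes of 0.04 and −0.09. The summed Cyp2j level was 50212 and 46234 in WT and 41235 and 39438 in LXRDKO, lower without overlap (two-sided exact permutation P = 0.333, the smallest possible). Cyp2r1, which hydroxylates vitamin D, and Cyp2u1, a fatty acid hydroxylase, were lower in both LXRDKO livers, at log2 fold changes of −0.29 and −0.30. Cyp2g1, known from olfactory tissue, and Cyp2s1, an extrahepatic enzyme, were higher in both, at 0.34 and 0.27 and with at most 165 reads in a liver. None of these 4 passed the test.

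Variation between mice of 1 genotype was larger in these genes than in the average gene. The median absolute log2 difference between the WT livers was 0.38 over the tested members and 0.18 over all genes tested, and between the LXRDKO livers it was 0.32 and 0.17. The WT livers differed by more than 2-fold in 13 members, and the LXRDKO livers in 6. WT 2 was the lowest of the 4 livers in 37.0% of the tested members and in 25.5% of all genes, and LXRDKO 1 was the highest in 39.1% of members and in 23.4% of all genes. Pericentral genes, a list of 8 that holds no P450, moved with WT 2 as well, with a summed level of 96246 normalized counts in WT 2, 154164 in WT 1, 159027 in LXRDKO 1 and 159057 in LXRDKO 2. Both LXRDKO livers were higher for 4 of the 8 (50%, against 21.7% of all genes) and lower for none (against 23.0%). The list's median log2 fold change was 0.47. An unadjusted limma P under 0.05 was reached by 2, both higher, where 5.77% of all genes were higher at that threshold. None of the 8 was called by limma or DESeq2. In bulk liver, fewer cells of a type and less RNA per cell cannot be told apart, and the part of zonation in the values of Cyp2e1, Cyp1a2, Cyp2c50 and their like was not tested.

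Genes that differ by sex were compared as well. The 6 tested members of the female-biased P450 list had 2 lower without overlap (33.3%, against 23.0% of all genes) and none higher. These 2, Cyp2c40 and Cyp2c69, share 36.7% and 46.5% of their stretches with each other and are not independent. The log2 fold change was above 0 in 3 members and below 0 in 3, from −3.00 to 1.77. The median of −0.53, beside 0.00 over all genes, therefore describes no common shift. Cyp2a4, Cyp2b9 and Cyp2c40 each had 1 liver far from the others. Outside P450, the female-biased repressor Cux2 had 41.1 and 226 normalized counts in WT, against 252 and 39.7 in LXRDKO. It was higher in WT 2, where Cyp2a4 was high, and in LXRDKO 1, where Cyp2b9 was high. Neither P450 gene was high in both of these livers, with Cyp2a4 at 34.2 in LXRDKO 1 and Cyp2b9 at 77.2 in WT 2. Of the 8 male-biased genes outside these families, DESeq2 called Cyp4a12a and Cyp4a12b lower, at a background of 2.03% of genes, and limma called none. Cyp7b1, an oxysterol hydroxylase, had 23124 in WT 1, 5128 in WT 2, 30756 in LXRDKO 1 and 29891 in LXRDKO 2, and the urinary protein gene Mup7 had 24673, 2005, 13400 and 7131 in that order. WT 2 was the lowest liver for both, and for 5 of the 8 genes, but not for Cyp4a12a, Cyp4a12b or Hsd3b5. The male-biased list summed to 131768 and 64754 in WT and 104344 and 97263 in LXRDKO. Of 9 genes of the growth hormone axis, none was called by limma or DESeq2. Without overlap, 3 were higher (33.3%, against 21.7% of all genes) and 4 lower (44.4%, against 23.0%). An unadjusted limma P under 0.05 was reached by 2, where 5.77% of all genes were higher and 7.50% lower at that threshold. The log2 fold changes ran from −1.01 for Bcl6 to 1.17 for Socs2, with a median of −0.12. Stat5b had 3221 and 2962 in WT and 2788 and 2524 in LXRDKO. The part of growth hormone in the P450 values was not tested.

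Genes known as inducible by drugs were then compared with the receptors that induce them. In the list of 10 inducible P450 genes, 5 were higher in LXRDKO without overlap (Cyp2b10, Cyp1b1, and Cyp2c37, Cyp2c54 and Cyp2c50, which share stretches), where 21.7% of all genes were. None was lower without overlap, where 23.0% of all genes were, and 1, Cyp2b10, was called by limma and DESeq2. The median log2 fold change of the 10 was 0.57, beside 0.00 over all genes. The genotypes overlapped for Cyp1a1, Cyp1a2, Cyp2c29, Cyp3a11 and Cyp2c55, the last with a log2 fold change of −0.62. The list was chosen with earlier results of these data known. Of 13 CAR and PXR targets outside P450, limma called none at an adjusted threshold. At an unadjusted limma P under 0.05 there were 3, with Slco1a4 and Por higher and Abcc2 lower. Over all genes, 5.77% were higher and 7.50% lower at that threshold. DESeq2 called 1 higher, at a background of 1.56% of genes. That gene, the organic anion transporter Slco1a4, had 1681 and 2988 normalized counts in WT, against 6500 and 7527 in LXRDKO, with a log2 fold change of 1.64 (SE 0.27, limma adjusted P = 0.108, DESeq2 adjusted P = 9.72e-08). The list had 4 genes higher (30.8%, against 21.7% of all genes) and 2 lower (15.4%, against 23.0%) without overlap, and a median of 0.29. Of 4 tested AHR targets outside P450, none was called by limma or DESeq2, 1 had an unadjusted P under 0.05, and the median was −0.19.

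The messages of the receptors themselves did not pass the test. Nr1i3, which encodes CAR, had 33393 and 21433 normalized counts in WT, against 28626 and 26900 in LXRDKO, a log2 fold change of 0.05 (SE 0.21). Nr1i2, which encodes PXR, had 6788 and 7278 against 6123 and 8040, a log2 fold change of 0.00 (SE 0.15). Ahr was higher in both LXRDKO livers, with 2992 and 2227 against 3272 and 3265 (log2 fold change 0.34, SE 0.15, limma adjusted P = 0.414). Of 8 receptors and partners, limma and DESeq2 called none. An unadjusted limma P under 0.05 was reached by 2, Arnt and Rxrg, which were lower in LXRDKO. Over all genes, 5.77% were higher and 7.50% lower at that threshold. Messenger RNA does not measure whether a receptor is active.

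**Figure D5:**
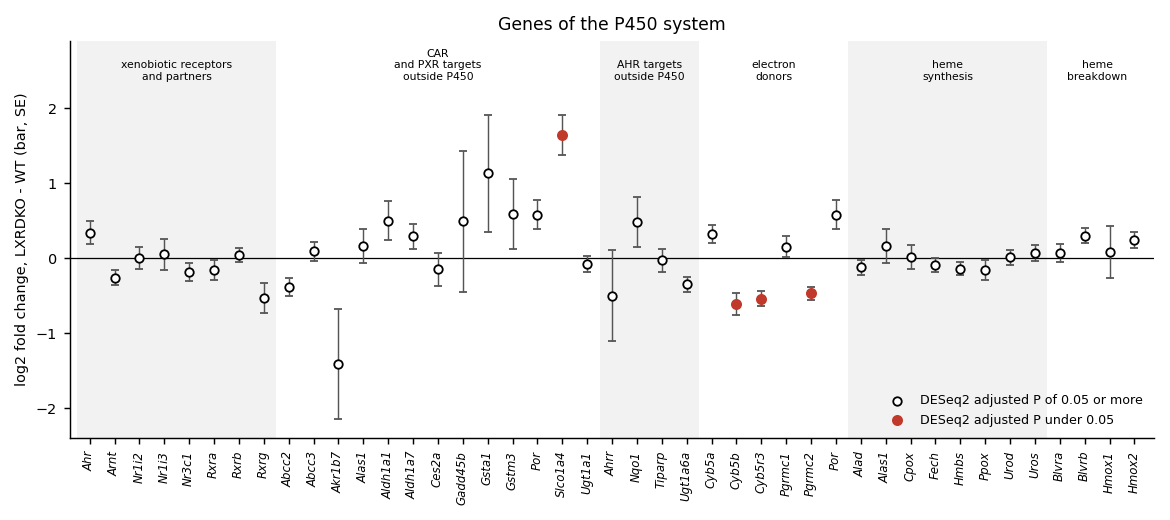
Log2 fold change (LXRDKO minus WT) with its standard error for the tested genes of 6 lists of the P450 system, where filled points have a DESeq2 adjusted P under 0.05. Slco1a4 at 1.64 is the filled point above 0, the filled points below 0 are Cyb5b, Cyb5r3 and Pgrmc2, and Por and Alas1 are in 2 lists.

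The list of electron donors held Por, Cyb5a, Cyb5b and Cyb5r3, and with them the heme-binding proteins Pgrmc1 and Pgrmc2. The genotypes did not overlap for any of these 6 genes, 3 higher and 3 lower in LXRDKO. Over all genes, 21.7% were higher and 23.0% lower without overlap. None passed limma at the adjusted threshold, and 5 had an unadjusted P under 0.05, where 5.77% of all genes were higher and 7.50% lower at that threshold. Por, the reductase on which every member depends, had 54673 and 73893 normalized counts in WT, against 87824 and 102130 in LXRDKO, a log2 fold change of 0.58 (SE 0.19) that did not pass DESeq2 either (adjusted P = 0.0594). Cyb5a, the microsomal cytochrome b5, had 45392 and 41323 against 53687 and 54199, a log2 fold change of 0.32 (SE 0.12). DESeq2 called Cyb5b, the mitochondrial outer membrane form, lower at −0.61 (adjusted P = 0.0144), the b5 reductase Cyb5r3 lower at −0.54 (adjusted P = 0.00096), and the membrane heme-binding protein Pgrmc2 lower at −0.47 (adjusted P = 0.0249). Over all genes, DESeq2 called 2.03% lower. The 8 genes of heme synthesis stayed between −0.16 and 0.16 on the log2 scale, with no gene at an unadjusted P under 0.05 or called by DESeq2. Alas1, which starts heme synthesis, had 49312 and 74970 in WT and 61549 and 74962 in LXRDKO. Of 4 heme breakdown genes, 2 were higher without overlap (50%, against 21.7% of all genes), none was called by limma or DESeq2, and 1 had an unadjusted P under 0.05.

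Of 13 transcription factors that regulate P450 genes in hepatocytes, limma called none. An unadjusted limma P under 0.05 was reached by 5, where 5.77% of all genes were higher and 7.50% lower at that threshold. DESeq2 called 2 higher and 2 lower, at backgrounds of 1.56% and 2.03% of genes. Hnf4a, required for the expression of most hepatic P450 genes, had 44147 and 38999 normalized counts in WT, against 70769 and 56007 in LXRDKO, a log2 fold change of 0.60 (SE 0.16, DESeq2 adjusted P = 0.0115). Foxa2 had 1293 and 1614 against 2422 and 2294, at 0.71 (SE 0.13, DESeq2 adjusted P = 0.00319). Lower were Nr0b2, the corepressor SHP, with 1055 and 700 against 285 and 402, at −1.34 (SE 0.26, DESeq2 adjusted P = 8.49e-05), and Ppara, with 15122 and 12695 against 8264 and 10337, at −0.58 (SE 0.15, DESeq2 adjusted P = 0.0282). The clock-driven factors Dbp, Tef and Hlf, which set the daily rhythm of Por and Cyp2b10, were not called by limma or DESeq2. Of these 3, 2 were lower without overlap (66.7%, against 23.0% of all genes). A single one had an unadjusted P under 0.05, and the median was −0.18. Their summed level was 39497 and 38216 in WT and 35408 and 28534 in LXRDKO.

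Markers of other liver cells also differed between the genotypes that are compared here. All 6 Kupffer cell markers were lower without overlap, where 23.0% of all genes were, with summed levels of 7742 and 8538 normalized counts in WT, against 895 and 510 in LXRDKO, and limma called Clec4f, Cd5l and Marco, and DESeq2 all 6. Over all genes, limma called 0.186% lower and DESeq2 2.03%. Timd4 was at 4.75 and 0 in the LXRDKO livers. Of 6 general macrophage markers none was called by limma or DESeq2 and 1 was lower without overlap. Of 5 sinusoidal endothelial markers 3 were lower without overlap (60%, against 23.0% of all genes), and limma and DESeq2 called Kdr. Both LXRDKO livers were higher for 5 of 6 stellate cell markers and for all 5 cholangiocyte markers, where 21.7% of all genes were. DESeq2 called Dcn, Reln and Epcam of these, at a background of 1.56% of genes, and limma none. Their summed levels were 17918 and 18263 against 24560 and 26171 for stellate cells, and 2077 and 3582 against 4553 and 5409 for cholangiocytes. Lymphocyte markers summed to 161 and 239 in WT and 103 and 68.6 in LXRDKO, and neutrophil markers to at most 20.9. Of 8 periportal genes 4 were higher without overlap (50%, against 21.7% of all genes) and none lower. DESeq2 called Sds higher, and the list summed to 462757 and 489881 against 571862 and 572822. The part of these cells in the levels of Cyp2b10, Cyp2c70 or any other member was not tested.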

How the data were processed

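RNA-Seq of liver from 2 WT and 2 LXRDKO mice, each a separate mouse, was used. The deposited values are a signal, read counts that the authors normalized with DESeq2, 1 size factor per library, for 25010 genes with no pooled column and 0 columns unused. The authors made stranded libraries with mRNA capture, sequenced single-end reads of 50 bases and aligned them to mm10 with STAR (2.6.0c in the submitters' processing notes). The counting tool, its treatment of reads that match several genes and the annotation are not given in the sources used here, which affects similar P450 genes most. All values (100%, within 0.001 of a whole number) were whole multiples of 1 read, so reads were recovered, 55772659 to 72842744 per liver. Floors of 3 reads cover counting error only.

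GENCODE M21 (GRCm38) gave the gene models, and 24987 identifiers matched it. The share of 50-base stretches of exons found in other genes was computed per member. log2(normalized count + 1) was tested with limma 3.58.1 (R 4.3.3) with a variance trend for all genes whose mean was 10 or more, with Benjamini-Hochberg adjustment and a threshold of 0.05. The log scale with pseudocount 1 understates changes of low genes. DESeq2 1.42.0 and edgeR 4.0.16 on recovered reads called 567 and 49 genes, and limma 50. The scripts were tested on simulated data. Alternatives were a pseudocount of 0.5 or 8, a minimum mean of 0 or 50, library total and upper-quartile scaling, limma without trend or with robust moderation, a replicate block, leaving out each liver, and members sharing under 10% of stretches. Members, lists and tests were chosen with earlier results of these data known. Values are given for members called by limma or DESeq2, for the most abundant member and the largest rise and fall without overlap in each subfamily, for the sex-biased and drug-inducible lists, for Cyp2e1, Cyp2f2, Cyp2a5 and Cyp2d22, and for members sharing over 50% of stretches. The others are given by counts, ranges and fold changes.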

Additional observations from a re-analysis of the deposited data

How the results depend on the processing

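The limma count of 1 member called, Cyp2b10, was the same with pseudocounts of 0.5 and 8, without a filter and with a minimum mean of 50, with both other scalings, with robust moderation and with edgeR. It was 0 without the variance trend, when 1 gene of the whole table was called, 3 with DESeq2 (Cyp2b10, Cyp2c38 and Cyp2c70), when 567 genes were called, and between 0 and 6 with each liver left out. The 6 came without WT 1, when WT 2 was the only WT liver and 262 genes were called, and the fits without WT 2, LXRDKO 1 and LXRDKO 2 called 157, 2 and 8 genes. A fit with the replicate number as a block (replicate block) called 3 members, Cyp2b10, Cyp2c37 and Cyp2c70, and 90 genes in all in place of 50. The numbers share no stated origin, so no pairing was used in the main fit. Deviations of same-numbered mice had a correlation of 0.00312 over all genes tested. With 1 difference per genotype, this value cannot exclude an origin shared by same-numbered mice that affects some genes. The 11 members higher without overlap became 17 under library total scaling, which moved the median of all genes by 0.05, and 4 among the 25 tested members that share under 10% of their stretches, and 16 to 23 with a liver left out. The 9 lower became 11 to 15 with a liver left out. The median log2 fold change of 0.19 was 0.07 with a mean of at least 50, 0.07 among members that share few stretches, and 0.02 to 0.17 with a liver left out. Leaving out a liver sets 1 liver against 2. Such groups separate more easily than 2 against 2 for any gene, so counts without overlap rise by design. The 4 were out of 25 members and the 11 out of 46. The causes of the other shifts were not tested. Over 29 named members and 429 refits, 401 kept their sign and their side of the threshold, 3 lost a call and 9 gained one, and 16 changed sign in 10 members while uncalled in both. Groups of 2 mice are too small for a test of outlying livers, and genes at a few reads, such as Cyp2j8 and Cyp2d11, are limited by depth.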
